A study of Mus musculus with 6 samples.

Results

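The genes described here encode the enzymes of de novo purine synthesis, the route by which cells build purine nucleotides from small precursors. They were taken from a written list of 10 genes, Ppat, Gart, Pfas, Paics, Adsl, Atic, Impdh1, Impdh2, Gmps and Adss, matched by mouse gene symbol to a table of 54838 genes. All 10 were found, each under a single identifier, and all 10 passed the filter on low counts. The rule names pathway genes and uses no measured value, but it was written with earlier results of these data known.

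The samples were leukemic cells of the I1DN model of acute myeloid leukemia (AML). In this model fetal liver cells of the blood stem and progenitor kind, of C57BL/6 background, carry introduced IDH1R132H, DNMT3AR882H and NrasG12D. Both groups carried all of these alleles. The cells were grown in sub-lethally irradiated Ptprca mice, a congenic strain that keeps blood cells of its own. One group of 3 mice received vehicle and the other group of 3 received AG636 by oral gavage at 100 mg/kg b.i.d.. AG636 inhibits DHODH, the mitochondrial enzyme that makes orotate on the way to UMP. The duration of treatment is given as 1 day in one legend and as 4 days in another, and the promoters of the constructs and the number of founder clones are not given in the sources used here. Cells were sorted as cKit-positive and CD11b-negative or low, from bone marrow and spleen, and their RNA was sequenced from the 3′ ends of transcripts. The tissue that each single sample came from and the age of the mice are not given in the labels. The comparison asks which transcripts of leukemic cells differed after the block of pyrimidine synthesis, and here it is read for the purine pathway that runs beside it.

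Purine synthesis builds the ring on ribose phosphate. Ppat makes the committed step from PRPP and glutamine, Gart, Pfas, Paics, Adsl and Atic carry out the following steps to inosine monophosphate (IMP), and IMP is the branch point to AMP and GMP. Formyl groups from folate enter at Gart and Atic, glutamine at Ppat, Pfas and Gmps, and aspartate at Paics and Adss. Adsl acts both on the way to IMP and on the way from IMP to AMP. Pyrimidine synthesis also consumes PRPP, glutamine and aspartate. Proliferating blood cells and leukemias use the pathway heavily, and inhibitors of IMPDH and of folate enzymes act on it.

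The libraries held between 4634963 and 7906589 counts, so that 3 counts corresponded to between 0.392 and 0.637 CPM (counts scaled by library size and the TMM method). The 10 genes lay far above that floor. Their lowest group mean was 36.9 CPM, for Ppat with AG636, and their highest was 549 CPM, for Paics with vehicle. Within a group, no pair of samples differed by as little as sampling noise, so each was counted once. Kit, which encodes the cKit receptor used in the sort, was at 38.6 ± 6.03 CPM with vehicle and 42.8 ± 4.80 CPM with AG636 (SD, n = 3 in every group here). Itgam, which encodes CD11b, was detected in both groups, at 19.1 ± 7.45 CPM with vehicle and 44.2 ± 14.6 CPM with AG636. It rose by 1.21 on the log2 scale (SE 0.31, adjusted p 0.0219 in edgeR's quasi-likelihood test), without overlap between the groups. Of 8 markers of B and T cells, 1 passed the low-count filter, and of 7 endothelial and stromal markers 0 did, with Cdh5 and Lepr at 0 counts in all samples.

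Transcripts of the purine pathway were lower with AG636 in most of its steps. Of the 10 genes, 6 fell, namely Ppat, Gart, Pfas, Adsl, Atic and Impdh2, and 0 rose at an adjusted p under 0.05 (edgeR's quasi-likelihood test, Benjamini-Hochberg over 11092 genes). The count of higher genes was also 0 at an unadjusted p under 0.05 and with DESeq2 or limma-voom. The background was 11.0% of all genes tested called lower and 10.3% called higher, and since the genes were chosen with earlier results known, the comparison with it is a description. The median log2 fold change was -0.70 over the 10 genes and 0.03 over all genes tested, and the fitted value was below 0 for 10 of the 10 genes and for 47.7% of all genes. In 7 of the 10 genes every AG636 value lay below every vehicle value, a pattern that 20.6% of all genes tested showed. The 3 genes of the lowest p were Gart, at rank 86 of all genes tested, Atic at rank 215 and Adsl at rank 239. The count depended on single mice. Without AG636 replicate 3, only Gart, Adsl and Atic passed the threshold, and Ppat, Pfas and Impdh2 had adjusted p of 0.0589, 0.0715 and 0.0514 in edgeR's test, at log2 fold changes of -0.73, -0.60 and -0.55. In that fit 4.03% of all genes were called lower. Without AG636 replicate 1, Ppat and Pfas missed it narrowly, with 0.0521 and 0.0501, at log2 fold changes of -0.80 and -0.79, and 4 genes were called, beside 5.54% of all genes. The p-values measure the spread between these mice only.

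**Figure D1:**
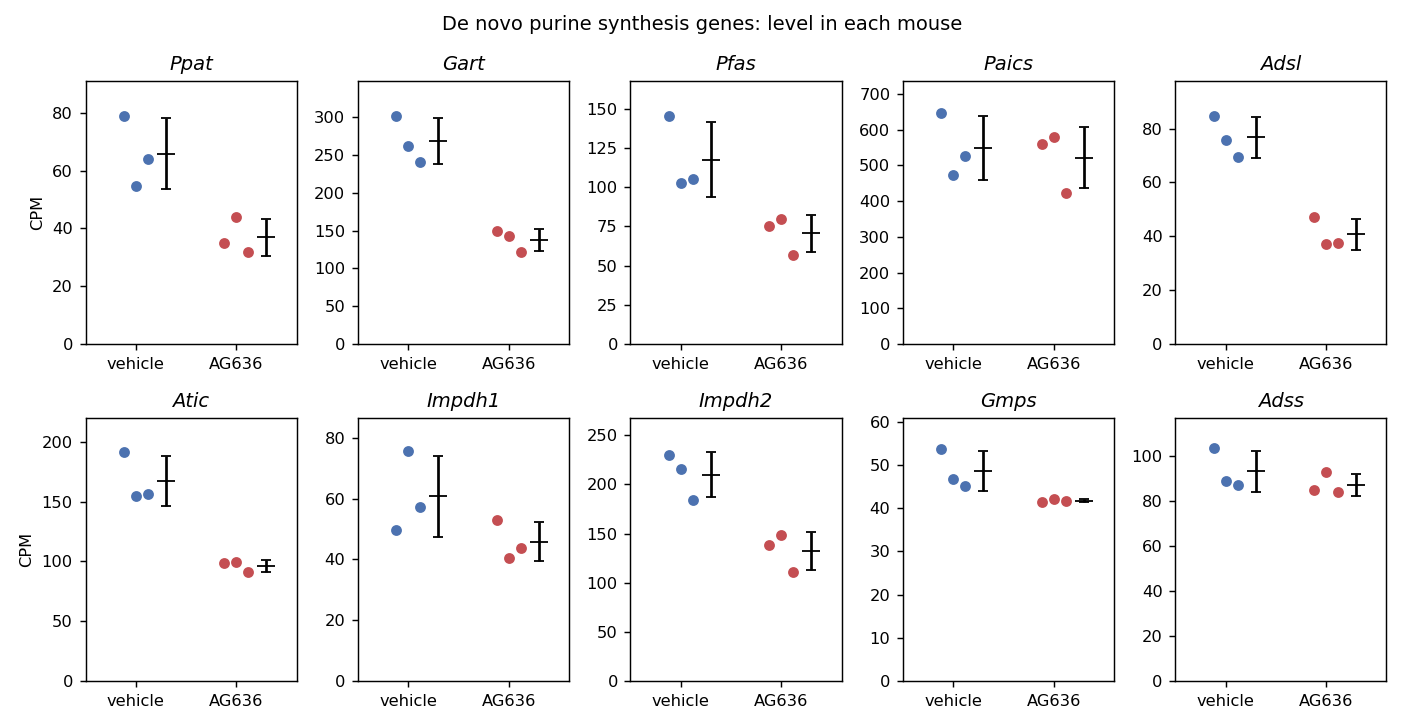
Level of each of the 10 genes in CPM (y axis, linear and starting at 0, a different range in each panel) in the 3 vehicle (blue) and 3 AG636 (red) mice, replicates 1 to 3 from left to right, with the mean and SD in black. The groups do not overlap for Ppat, Gart, Pfas, Adsl, Atic, Impdh2 and Gmps, and they overlap for Paics, Impdh1 and Adss.

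Ppat (ENSMUSG00000029246, mm10 chr5:76913249-76951578, minus strand) encodes the amidotransferase that commits PRPP to purine synthesis. It was at 78.8, 54.5 and 64.1 CPM in vehicle replicates 1 to 3 and at 34.8, 44.1 and 31.7 CPM in AG636 replicates 1 to 3. The lowest vehicle value was above the highest AG636 value, and the means were 65.8 ± 12.2 and 36.9 ± 6.46 CPM. The log2 fold change was -0.83 (SE 0.18, 95% interval -1.24 to -0.43), with an adjusted p of 0.0139 by edgeR's quasi-likelihood test. That is a level 43.9% lower at the first step of the pathway.

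Gart (ENSMUSG00000022962, chr16:91621186-91646952, minus strand) encodes a trifunctional enzyme that carries several early steps, among them the first addition of a formyl group. Its levels were 301, 262 and 241 CPM with vehicle and 149.7, 142 and 121 CPM with AG636. The groups were well apart, and Gart had the largest fall of the 10 genes, with a log2 fold change of -0.96 (SE 0.13) and an adjusted p of 0.00320 in edgeR's test. Pfas (ENSMUSG00000020899, chr11:68985697-69008460, minus strand), the glutamine-dependent synthase that follows, was at 145, 102 and 105 CPM with vehicle and at 75.4, 79.4 and 57.0 CPM with AG636. Vehicle replicate 1 was the highest of the 6 and AG636 replicate 3 the lowest, without overlap between groups. Its log2 fold change was -0.74 (SE 0.18, adjusted p 0.0196 in the same edgeR test).

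Paics (ENSMUSG00000029247, chr5:76951307-76967509, plus strand) encodes the bifunctional carboxylase and synthetase of the middle steps, and it stood apart from its neighbours in the pathway. It was at 646, 473 and 527 CPM with vehicle and at 559.9, 581 and 424 CPM with AG636. The groups overlapped, with AG636 replicates 1 and 2 above vehicle replicates 2 and 3. The log2 fold change was -0.07 (SE 0.15) and did not pass the test, with an adjusted p of 0.762 in edgeR's test. Its 95% interval ran from -0.42 to 0.27 and so lay above the estimates of the other 5 genes on the way to IMP. The sign of this small value was not stable: it was 0.016 with library size alone as the scaling, 0.043 without vehicle replicate 1 and 0.056 without AG636 replicate 3.

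Adsl (ENSMUSG00000022407, chr15:80948490-80970946, plus strand), the lyase that acts at a step before IMP and again before AMP, was at 84.7, 75.9 and 69.6 CPM with vehicle and 47.4, 37.3 and 37.6 CPM with AG636. The gap between the groups was wider than the range within either group. Its log2 fold change was -0.91 (SE 0.15), with an adjusted p of 0.00517 in edgeR's test. Atic (ENSMUSG00000026192, chr1:71557150-71579631, plus strand) encodes the enzyme of the last steps to IMP, including the second formyl transfer. It was at 192, 155 and 156 CPM with vehicle and at 98.3, 99.6 and 90.8 CPM with AG636. The AG636 mice lay close together, at 96.2 ± 4.76 CPM against 168 ± 20.9 CPM. The log2 fold change was -0.80 (SE 0.13), with an adjusted p of 0.00475 in edgeR's test.

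Beyond IMP, 1 of the 4 remaining genes was called. IMP dehydrogenase makes XMP on the way to GMP and is encoded by a pair of genes, Impdh2, the form known to rise in proliferating cells, and Impdh1. Impdh2 (ENSMUSG00000062867, chr9:108560286-108565584, plus strand) was at 229.6, 216 and 185 CPM with vehicle and at 138, 148 and 111 CPM with AG636. All AG636 values lay below all vehicle values, with a log2 fold change of -0.67 (SE 0.14) and an adjusted p of 0.0128 in edgeR's test. Impdh1 (ENSMUSG00000003500, chr6:29200434-29216364, minus strand) was at 49.6, 75.6 and 57.3 CPM with vehicle and at 53.1, 40.6 and 43.8 CPM with AG636. Here vehicle replicate 1 was below AG636 replicate 1, so the groups overlapped. Its log2 fold change was -0.41 (SE 0.18, 95% interval -0.82 to -0.0030), with p of 0.0486 before and 0.132 after adjustment in edgeR's quasi-likelihood model test, and so it was not called.

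Gmps (ENSMUSG00000027823, chr3:63976106-64022579, plus strand) aminates XMP to GMP. It was at 53.8, 46.8 and 45.1 CPM with vehicle and at 41.4, 42.3 and 41.7 CPM with AG636. The values did not overlap, yet the gap was small, and the log2 fold change of -0.22 (SE 0.14, 95% interval -0.53 to 0.09) had an adjusted p of 0.287 in edgeR's test. Adss (ENSMUSG00000015961, chr1:177762962-177796511, minus strand), the synthetase that opens the AMP branch, was at 103.6, 89.1 and 87.1 CPM with vehicle and at 85.0, 93.0 and 84.2 CPM with AG636. AG636 replicate 2 exceeded vehicle replicates 2 and 3. The log2 fold change was -0.09 (SE 0.13), the adjusted p 0.622 in edgeR's test, and the 95% interval of -0.37 to 0.19 left out changes of the size seen for Gart, Adsl and Atic. Its paralog Adssl1, known as the muscle form, was at 32.7 ± 13.8 CPM with vehicle and 36.8 ± 9.87 CPM with AG636, with a log2 fold change of 0.18 (SE 0.30, adjusted p 0.703 in edgeR's test) that became -0.078 without vehicle replicate 1.

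**Figure D2:**
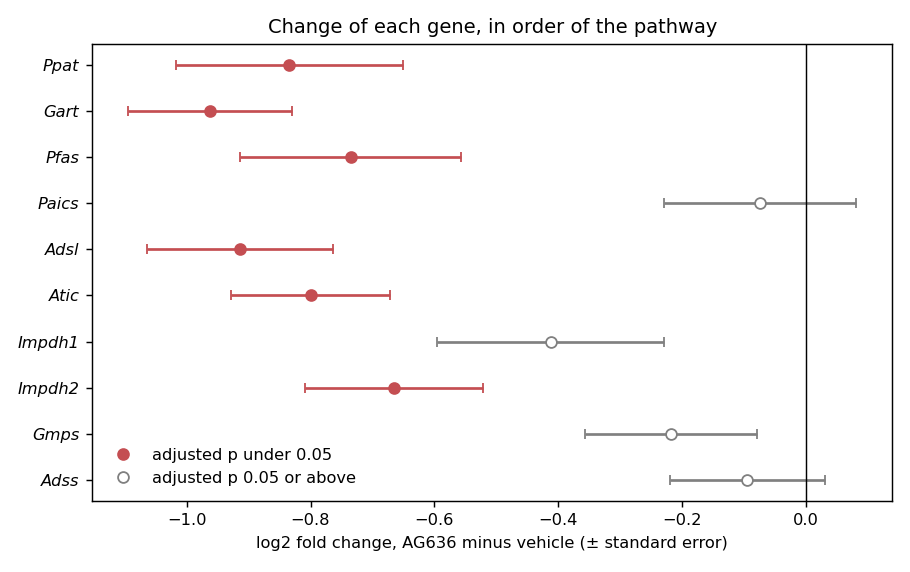
Log2 fold change of each gene (x axis, AG636 minus vehicle; negative is lower with AG636), in pathway order from top to bottom, with its standard error as the bar. Filled red points have an adjusted p under 0.05 and open grey points do not; Paics at -0.07 sits to the right of the other genes on the way to IMP, which lie between -0.96 and -0.74.

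By step, 5 of the 6 genes leading to IMP fell, with a median log2 fold change of -0.82. In the GMP branch 1 of 3 genes fell, with a median of -0.41, and the only gene specific to the AMP branch, Adss, was not called. Whether the branches differ from the steps before them was not tested. Summed over the 10 genes, the transcripts made up 1884, 1551 and 1537 CPM with vehicle and 1283, 1308 and 1043 CPM with AG636. The sum was thus lower in every AG636 mouse than in any vehicle mouse, and it weights each gene by its counts.

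Individual mice stood at the ends of most of these ranges. Vehicle replicate 1 had the highest value of all 6 samples in 9 of the 10 genes, Impdh1 being the exception. AG636 replicate 3 had the lowest value in 7 genes, AG636 replicate 2 in 2 and AG636 replicate 1 in 1. Leaving out either mouse still left the median of the 10 genes well below 0, at -0.59 without vehicle replicate 1 and -0.58 without AG636 replicate 3.

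Pairs of genes from the same cell sample were compared as ratios, which do not depend on the scaling between libraries. The log2 ratio of Paics to Ppat was 3.03, 3.12 and 3.04 with vehicle and 4.0, 3.72 and 3.74 with AG636. The ratio was higher in every AG636 mouse by more than the spread within groups, a change of 0.76 (SE 0.096). Ppat and Paics lie head to head on chromosome 5. The log2 ratio of Impdh2 to Impdh1 was 2.21, 1.51 and 1.69 with vehicle and 1.38, 1.87 and 1.34 with AG636. These values overlapped, and the change of -0.27 (SE 0.27) was about the size of its error. The log2 ratio of Gmps, which closes the GMP branch, to Adss, which opens the AMP branch, was -0.94, -0.93 and -0.95 with vehicle and -1.03, -1.14 and -1.01 with AG636. It did not overlap between the groups, and its change was small, at -0.12 (SE 0.039). Over these 3 ratios, the two-sided exact permutation p was 0.1 for Paics to Ppat and for Gmps to Adss, the smallest that 3 against 3 mice allows, and 0.5 for Impdh2 to Impdh1, with Benjamini-Hochberg adjusted values of 0.15, 0.15 and 0.5. No ratio could reach 0.05 in this design.

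**Figure D3:**
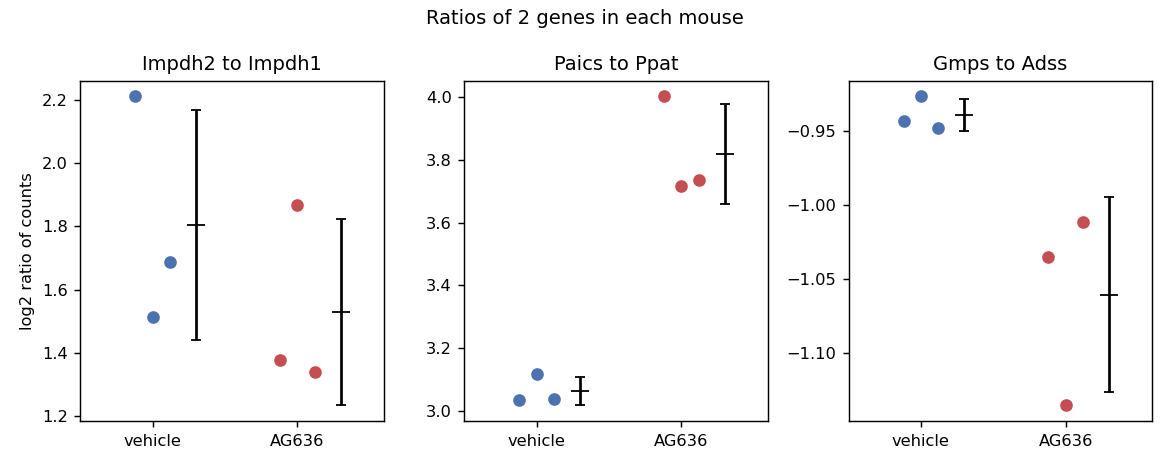
Log2 ratio of counts of 2 genes in each mouse (y axis, a different range in each panel that does not start at 0), vehicle in blue and AG636 in red, with the mean and SD in black. Paics to Ppat moves from about 3.06 with vehicle to 3.82 with AG636 without overlap, and Impdh2 to Impdh1 overlaps.

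The position of the genes bears on how their reads can be told apart. The exons of Ppat and Paics share 272 bases at their 5′ ends on opposite strands, away from the 3′ ends that were sequenced. Impdh2 shares 48 exon bases with Ndufaf3 at its 3′ end, also on the opposite strand, and the use of strand in counting is not given in the sources used here. Ndufaf3 had 1118 counts against 5779 for Impdh2 and a log2 fold change of 0.10 (SE 0.21, adjusted p 0.760 in edgeR's test). Of the 50-base stretches in the last 500 bases of Impdh2, 80% also occur in its pseudogene Impdh2-ps, which had 8 counts in total, so reads of Impdh2 could have been lost or shared there and its level is uncertain to that extent. For Gart, 39.7% of such stretches occur on the opposite strand in Gm15964, which shares 1014 exon bases with Gart and had 3 counts. If strand was not used in counting, reads of Gart could have been lost there, so its level is uncertain too. The other genes shared at most 1 such stretch.

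Promoters were searched because most of the genes moved together. RefSeq windows on GRCm38.p6, from 250 bases before to 50 bases after the start, were found for 9 of the 10 genes, and none was found for Pfas. The E-box CACGTG, which Myc with Max and other bHLH factors can bind, occurred in 3 of these 9 genes, Paics, Atic and Impdh2, and in 8.09% of 27025 genes with a window. The YY1 core AAGATGG, searched on both strands like the others, occurred in Adsl and in 7.28% of all genes. The CEBP-ATF element TGATGNAA was found in 0 of the 9 and in 4.51% of all genes, and the NRF1 core CGCATGCG in 0 and 2.07%. The matches are shown with 12 bases on each side so that the letters behind these counts can be read. They run 5′ to 3′ on the plus strand, which is the strand of all of these genes, and the capitals mark the motif, which for Adsl is read on the minus strand.
Atic, chr1:71557137-71557166: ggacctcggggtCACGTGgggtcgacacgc
Paics, chr5:76951087-76951116: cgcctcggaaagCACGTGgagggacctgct
Impdh2, chr9:108560314-108560343: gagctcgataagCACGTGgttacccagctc
Adsl, chr15:80948406-80948436: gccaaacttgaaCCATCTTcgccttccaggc
The Paics window lies inside the span of Ppat, and that of Impdh2 lies just inside the start that the count table gives. The genes with an E-box included Atic and Impdh2, which fell, and Paics, which did not pass the test, and Gart, with the largest fall, had none in its window. A match describes these letters only, and whether it bears on the change of a gene was not tested.

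Of 5 factors listed here as possible regulators of purine genes, Atf4, an activator of amino acid and one-carbon genes under stress, was the only one that passed the test. It was at 387.1, 386.9 and 355 CPM with vehicle and at 204, 243 and 165 CPM with AG636, with no overlap. The log2 fold change was -0.88 (SE 0.15, adjusted p 0.00517 in edgeR's test). Myc, which drives many nucleotide synthesis genes, was at 34.9, 27.6 and 36.4 CPM with vehicle and 26.5, 40.6 and 14.7 CPM with AG636. The AG636 values spanned the vehicle values, and the log2 fold change of -0.27 (SE 0.31, adjusted p 0.551 in edgeR's test) became 0.032 without AG636 replicate 3. Max, its partner, had a log2 fold change of -0.11 and Nrf1 one of -0.17, and neither passed. Yy1 had -0.07, and 0.014 with library size alone. All of these are transcript levels, which need not follow the protein. In cultured cells of an MLL-AF9 AML model, the study reports more ATF4 protein and less MYC and YY1 protein with AG636. In human AML lines it reports less YY1 protein without a fall of the transcript. The proteins were not measured in the samples described here.

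The genes that feed the pathway with folate-bound carbon, serine and glutamine had a median close to that of the purine genes. Of 15 listed, 13 passed the low-count filter, 7 fell and 2 rose, with a median log2 fold change of -0.76. Over all genes tested, 11.0% were called lower and 10.3% higher, and the counts of the lists that follow stand beside the same shares. Mthfd2, a mitochondrial folate enzyme that makes the one-carbon units for purines, fell from 175, 144 and 169 CPM to 67.1, 76.5 and 57.8 CPM. Its log2 fold change was -1.28 (SE 0.14, adjusted p 0.00202 in edgeR's test), beyond that of any of the 10 purine genes. Shmt2, the mitochondrial serine hydroxymethyltransferase, fell by 0.99 on the log2 scale (SE 0.15, adjusted p 0.00411). Psat1, of serine synthesis, fell by 0.80 (SE 0.11, adjusted p 0.00298). The genes that rose were Glul, glutamine synthetase, with 1.49 (SE 0.36) and Mthfs with 0.98 (SE 0.29), and the former rested partly on AG636 replicate 2, at 346 CPM against 117 and 131 CPM in the other AG636 mice. The count of genes called higher was 1 without vehicle replicate 1 or without any single AG636 mouse, and 0 without vehicle replicate 2.

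PRPP, the ribose donor, is made by PRPP synthetases, and the list of the synthetases Prps1 and Prps2 with their associated proteins Prpsap1 and Prpsap2 gave 0 calls in either direction in edgeR's test, 0 at an unadjusted p under 0.05 and 0 with DESeq2 or limma-voom, and a median of -0.24. Prps1 was at -0.29 (SE 0.13), with overlapping groups, and 1 of the 4 genes was called lower when vehicle replicate 3 was left out. De novo pyrimidine and CTP synthesis, the pathway that the drug blocks, had 4 of 6 genes lower and 0 higher, with a median of -0.71. At an unadjusted p under 0.05, 1 gene was higher, and with DESeq2 or limma-voom 0 were. Dhodh itself, the target of AG636, fell from 62.4, 49.4 and 55.6 CPM to 35.0, 28.2 and 31.7 CPM, a log2 fold change of -0.82 (SE 0.16, adjusted p 0.00880 in edgeR's test). Umps, which completes UMP, fell by 0.70 (SE 0.16) and Ctps, which makes CTP, by 0.71 (SE 0.13). Without AG636 replicate 3, 2 of the 6 genes were called lower, beside 4.03% of all genes in that fit.

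Salvage, which recovers purine bases and nucleosides, had a smaller median change. Of 8 genes, 3 fell and 0 rose, also at an unadjusted p under 0.05 and with DESeq2 or limma-voom, and the median was -0.33. Of all genes tested, 11.0% were called lower and 10.3% higher in the main fit. Aprt, which salvages adenine, fell by 0.76 on the log2 scale (SE 0.15, adjusted p 0.00890 in edgeR's test), Adk, adenosine kinase, by 0.94 (SE 0.20) and Mtap, which frees adenine from methylthioadenosine, by 0.57 (SE 0.14). Hprt, which salvages hypoxanthine and guanine, had -0.12 (SE 0.12), with an adjusted p of 0.511 in edgeR's test and overlapping groups. The count called lower was 2 without vehicle replicate 2, AG636 replicate 1 or AG636 replicate 3.

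Of 12 kinases that phosphorylate purine mono- and diphosphates, 8 passed the low-count filter, 5 fell and 1 rose, with a median of -0.58. Nme1, a nucleoside diphosphate kinase, fell by 0.78 (SE 0.12, adjusted p 0.00407 in edgeR's test) and Ak6 by 0.73 (SE 0.17). Ak1 rose by 1.79 (SE 0.38, adjusted p 0.0121) from a low level of 1.07, 1.70 and 2.09 CPM to 6.16, 4.12 and 6.61 CPM. Without AG636 replicate 3, 1 gene was called lower and 0 higher, in a fit where calls over all genes also dropped, from 1222 to 452 lower and from 1146 to 399 higher. Without vehicle replicate 1 or AG636 replicate 1, 3 were called lower.

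Interconversion and breakdown genes went partly the other way. Of 16 listed, 14 passed the low-count filter, 4 rose and 1 fell, beside 10.3% of all genes called higher and 11.0% lower. The median was 0.15. Xdh, which oxidises hypoxanthine and xanthine to uric acid, rose from 3.57, 4.97 and 2.51 CPM to 9.77, 15.1 and 12.8 CPM. Its log2 fold change was 1.73 (SE 0.31, adjusted p 0.00667 in edgeR's test), and the groups did not overlap. Gda, guanine deaminase, rose by 1.15 (SE 0.23), Samhd1, a dNTP hydrolase, by 0.45 (SE 0.11) and Gmpr, which returns GMP to IMP, by 0.65 (SE 0.17). Nt5c2, a nucleotidase acting on IMP and GMP, fell by 0.67 (SE 0.17, adjusted p 0.0240 in edgeR's test). Without vehicle replicate 3 or AG636 replicate 3, 2 genes were called higher, and without AG636 replicate 2, 2 were called lower, while 0 were called lower when any mouse other than AG636 replicate 2 or vehicle replicate 3 was left out.

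**Figure D4:**
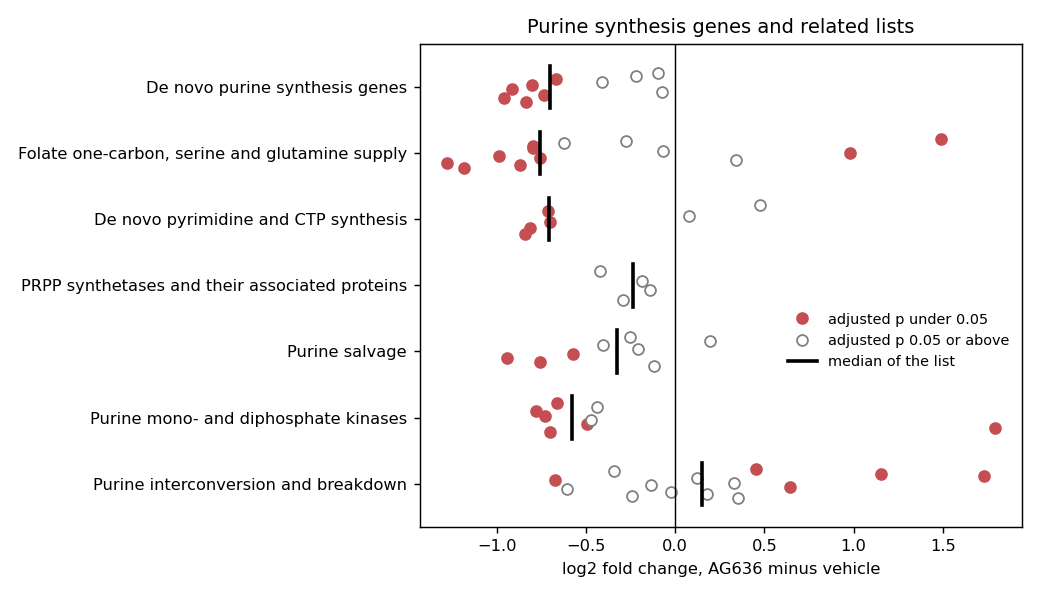
Log2 fold change (x axis, AG636 minus vehicle) of each gene that passed the low-count filter, grouped by list; filled red points have an adjusted p under 0.05, open grey points do not, and the black bar is the list's median. The medians are -0.70 for de novo purine synthesis, -0.76 for one-carbon, serine and glutamine supply, -0.71 for pyrimidine synthesis, -0.24 for PRPP synthetases and their associated proteins, -0.33 for salvage, -0.58 for kinases and 0.15 for interconversion and breakdown.

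Each of these lists was written from textbook pathways, and none was tested as a list, so a difference between their medians is a description. The scaling mattered for all genes but not for the calls of the 10: with TMM, 1222 genes were lower and 1146 higher, with library size alone 913 were lower and 1483 higher, and the same 6 purine genes were called under both.

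Markers of cell maturity moved with the treatment. Of 11 markers of maturing neutrophils, 10 passed the low-count filter, 7 rose and 0 fell, beside 10.3% of all genes called higher. Their median log2 fold change was 1.19. Their summed level ran from 1048 to 2394 CPM with vehicle and from 2924 to 5939 CPM with AG636. This sum and those below weight each gene by its counts. Here S100a8 and S100a9 weighed most, with means of 1979 and 1448 CPM with AG636. S100a8 was not called (adjusted p 0.0872 in edgeR's test), and its groups overlapped. Ngp, a neutrophil granule protein, rose by 1.67 (SE 0.22, adjusted p 0.00271 in edgeR's test). The summed level of 7 immature myeloid markers overlapped, from 2441 to 4945 CPM with vehicle and from 1820 to 5152 CPM with AG636, and 0 of the 7 were called in edgeR's test, also at an unadjusted p under 0.05. Of 8 erythroid markers 2 fell, among them Klf1, and 0 rose, beside 11.0% of all genes called lower. The median log2 fold change of the 8 was -0.82, and 7 of the values were below 0. At an unadjusted p under 0.05 in edgeR's test, 4 were lower. The summed level of the 8 ran from 1693 to 4772 CPM with vehicle and from 1966 to 3274 CPM with AG636. The highest erythroid and the lowest neutrophil sum were both in vehicle replicate 1, the mouse with the highest values of 9 of the 10 purine genes. The part of these cells in the purine result was not tested, and in bulk RNA fewer cells of a type and less RNA per cell cannot be told apart.

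Among the genes outside the 10, the profile most like the mean of their standardized log2 CPM over the 6 samples was that of Fpgs, with a Pearson r of 0.9997. Fpgs encodes folylpolyglutamate synthase, which retains folates inside cells. It was at 168, 108 and 97.4 CPM with vehicle and at 56.1, 57.9 and 36.6 CPM with AG636, a log2 fold change of -1.31 (SE 0.24, adjusted p 0.00678 in edgeR's test). The next were Usp9x, a deubiquitinase, with r of 0.998, and Cd82, a tetraspanin, Ndufa10, a subunit of complex I, and Lap3, an aminopeptidase, each with r of 0.997. Usp9x had a log2 fold change of only -0.30, which did not pass the test (adjusted p 0.0952 in edgeR's test), so likeness of shape did not mean likeness of size. All 6 points share the 2 treatment groups, and such values are a description picked from all genes tested. Of the 10 genes, Pfas was most like the mean of the other 9, with r of 0.990, followed by Impdh2, Gart and Atic between 0.968 and 0.971. Adss with 0.692, Paics with 0.483 and Impdh1 with 0.393 were least like it.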

How the data were processed

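The authors deposited read counts per gene for 3 vehicle and 3 AG636 mice. QuantSeq 3′ libraries were, per the submitters' processing notes, trimmed with cutadapt 1.9.1, mapped to GRCm38 (mm10) with HISAT2 2.0.4 and counted with featureCounts of Subread 1.5.0-p3; the published methods name other versions of cutadapt and Subread. The annotation release and use of strand are not given in the sources used here. No molecular identifiers are described, so floors cover counting error only. Symbols came from GENCODE, matching 54809 of 54838 identifiers.

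Counts were tested in R 4.3.3 with edgeR 4.0.16 (filterByExpr with a minimum count of 10 and total of 15, TMM, quasi-likelihood test) and Benjamini-Hochberg adjustment over 11092 genes, at a threshold of 0.05. A standard error is the log2 fold change divided by the square root of F. Ratios used a prior count of 0.5. limma 3.58.1 (voom), DESeq2 1.42.0, other scalings and filters, a replicate block and leaving out each mouse were alternatives. Scripts were tested on simulated data.

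The genes and lists were chosen with earlier results of these data known. Named were all 10 purine genes, up to 3 called genes per list and direction with the lowest p, all 5 regulators, paralogs, overlapping genes and the 5 genes most like the 10; Gmpr, Hprt, Prps1, Kit and Itgam were named after their values were seen. Some genes that this rule would name are not reported here.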

Additional observations from a re-analysis of the deposited data

How the results depend on the processing

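The same 6 purine genes were called lower with limma-voom or DESeq2, with DESeq2-style size factors, with no scaling beyond library size, without a filter, with a minimum of 10 counts in each mouse, with TMM factors from genes outside translation and with a fold change of 1.5 or more required, and 0 were called higher in any alternative. Of all genes tested, 7.58% were called lower without a filter, 8.23% with library size alone and 11.1% with limma-voom. With DESeq2, DESeq2-style size factors, the minimum of 10 counts or TMM factors from genes outside translation, the share was above 11.1%. No share is given here for the required fold change or for an adjusted p under 0.01. At an adjusted p under 0.01, 3 purine genes were called lower, Gart, Adsl and Atic. Leaving out each mouse in turn gave from 3 to 6, with Ppat and Pfas lost without AG636 replicate 1 or 3 and Impdh2 without AG636 replicate 3. Over the same fits, the share of all genes called lower ran from 4.03% without AG636 replicate 3 to 11.3% without vehicle replicate 3. Gart, Adsl and Atic were called in all 14 alternative fits.

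Whether same-numbered mice were paired is not stated. Their deviations from the group means had correlations of -0.057, -0.18 and 0.22, too few values to settle it, and vehicle replicate 1 was most like AG636 replicate 2. With the replicate block 6 genes were called lower, beside 9.43% of all genes.

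The median of the 10 genes ran from -0.80 to -0.58 over the alternatives. Uncalled values that changed sign were those of Paics (0.016 with library size alone, -0.18 to 0.056 over the mice left out), Yy1 (0.014 with library size alone), Adssl1 (-0.078 to 0.51 over the mice left out) and Myc (-0.68 to 0.032 likewise); the cause was not tested. Over all genes, 1222 were called lower and 1146 higher, and with 1 mouse left out from 452 to 1298 lower and from 399 to 1074 higher, the lowest counts being those without AG636 replicate 3. With 3 mice a group, the median standard error of the 10 genes was 0.15 on the log2 scale. It was 0.18 for Impdh1, 0.15 for Paics, 0.14 for Gmps and 0.13 for Adss, which limits what can be said of these uncalled genes.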
